A study of Homo sapiens with 12 samples.

Results

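Carbonic anhydrases are zinc enzymes that interconvert carbon dioxide and bicarbonate, and calbindins are EF-hand proteins that bind calcium in the cytosol. The transcripts of 8 genes of these families were followed in 12 RNA sequencing libraries of the human leukaemia line K562: CA1, CA2, CA3, CA8, CA12, CA13, CALB1 and CALB2. They were chosen by symbol, 8 of the 19447 symbols in the count table, after CA8, CALB1 and others had been seen to differ between these same libraries. Levels and fold changes of the 8 genes are therefore given as a description, without p-values of their own. Transcripts of 5 of them (CA1, CA3, CA8, CA13 and CALB1) were counted in every library, CA12 was counted almost only in K562/IM, and CA2 and CALB2 were at or near 0.

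CA1 is an abundant carbonic anhydrase of red cells, where the enzymes speed the uptake of carbon dioxide from tissue and its release in the lung, and where bicarbonate leaves the cell through the anion exchanger SLC4A1. CA2 is the fast cytosolic isozyme, CA3 a slow one best known from skeletal muscle and fat, CA13 a further cytosolic isozyme, and CA12 a membrane enzyme whose active site faces the outside of the cell. CA8 has the fold of the family but no carbonic anhydrase activity, and its protein binds ITPR1, the receptor through which inositol trisphosphate releases calcium from the endoplasmic reticulum. CALB1 (calbindin) and CALB2 (calretinin) buffer calcium and are best known from neurons, with CALB1 also found in kidney and gut.

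K562 is an established line from a patient with chronic myeloid leukaemia and carries erythroid features. K562/IM is its imatinib-resistant derivative, raised by stepwise exposure to the kinase inhibitor imatinib and kept in medium with 5 µM of it. The suffix L marks exposure to 6 µM lycorine, an alkaloid of the Amaryllidaceae. The 4 groups of 3 libraries were thus K562 labelled control, K562+L, K562/IM labelled control and K562/IM+L. Neither how long the cells were exposed before RNA was taken, nor whether imatinib was present at that time, nor whether the 3 libraries of a group came from separate cultures is given in the sources used here, so the spread between libraries may be technical. K562/IM was described as 1 derived line, so that line and imatinib exposure cannot be told apart.

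Total counts were between 75093844 and 107344598 per library. The erythroid markers fit the K562 label, with GATA1 between 180 and 275 counts per 1e6 counts (CPM) in all 12 libraries and HBG1 at 487 CPM or more, while the B cell gene MS4A1 was at 0 and the granulocyte genes MPO and ELANE were below 0.126 CPM in all 12. Of the markers of other blood lineages, LYZ, the lysozyme gene of granulocytes and monocytes, stood at 74.9 to 171 CPM in all 12 libraries, and in K562/IM the T cell gene CD3D stood at 21.3 to 23.0 CPM. The libraries labelled K562/IM+L stood apart from the line they are named for. Of the 2566 genes called between K562/IM and K562, their mean was nearer to K562 for 1719 genes and nearer to K562/IM for 847 (33.0%), against 380 genes nearer to K562/IM for K562+L. Of the 829 genes called with an absolute log2 fold change above 3, 691 were nearer to K562. The cause was not tested, and these libraries, whose sample names begin with G2, are called the G2 libraries from here on.

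**Figure D1:**
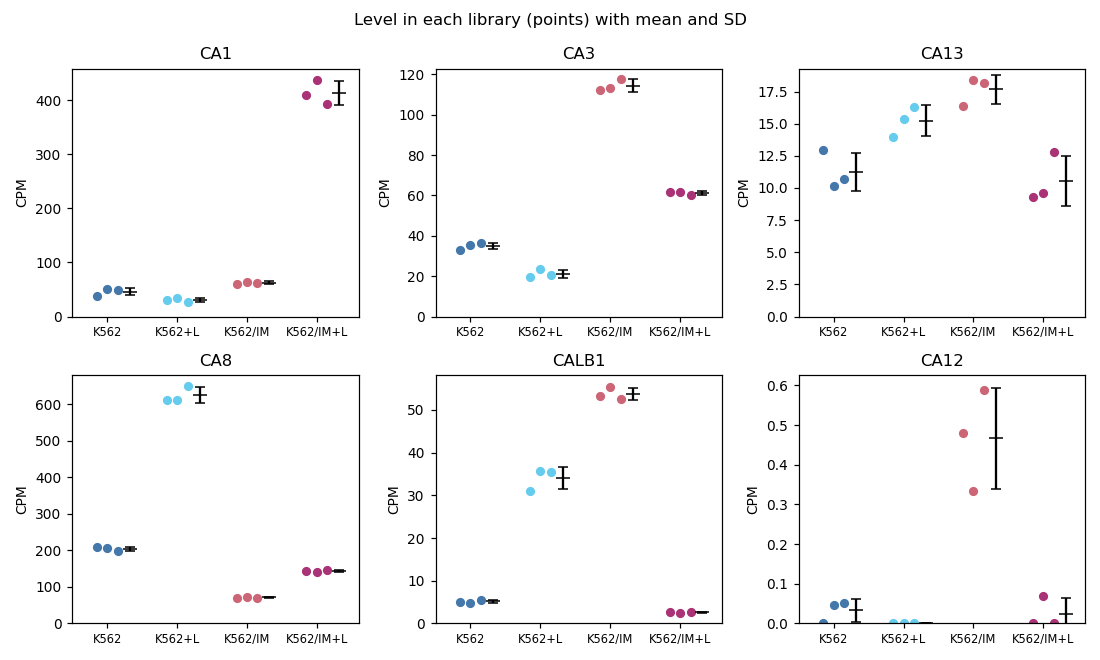
Level of 6 genes in each of the 12 libraries, in CPM (linear axes from 0, a different range in each panel), with the G2 libraries plotted as K562/IM+L. Points are replicates 1 to 3 of each group, and the bar beside them is the mean with its SD (n = 3). CA1 is highest in the G2 libraries, CA3, CA13, CALB1 and CA12 in K562/IM, and CA8 in K562+L.

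CA1, a red cell isozyme, separated the G2 libraries from all others. In K562 it stood at 38.7, 50.6 and 49.0 CPM in replicates 1, 2 and 3. In K562+L the values were 29.8, 33.9 and 27.3 CPM, and in K562/IM 60.1, 64.7 and 62.8 CPM. In the G2 libraries they were 410, 438 and 394 CPM. No 2 groups overlapped, and the order was the G2 libraries, K562/IM, K562 and K562+L. How many of all genes show such a separation was not counted, for CA1 or for the genes below. Against K562/IM the difference was a log2 fold change of 2.75 (SE 0.073), or 6.74-fold, and against K562 it was 3.15 (SE 0.13), or 8.87-fold. The other differences were small, at -0.61 (SE 0.13) in K562+L against K562 and 0.44 (SE 0.11) in K562/IM against K562. K562 replicate 1 was the lowest of its group, and the 0.44 had a range of 0.30 to 0.51 as each library in turn was left out.

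The erythroid genes as a list moved with CA1 in part. Their summed level over 19 genes was 8377 to 10943 CPM in K562, 5917 to 6538 CPM in K562+L, 3995 to 4139 CPM in K562/IM and 43265 to 60046 CPM in the G2 libraries. ALAS2, the first enzyme of erythroid heme synthesis, was at 962 to 1170 CPM in those libraries and at most 50.9 CPM in the other 9. All 19 genes passed the test as higher there than in K562/IM, 17 of them called, where 66.8% of all tested genes passed by adjusted p and 28.5% were called in either direction. The list had a median log2 fold change of 4.0 where the median of all tested genes was -0.01. In K562/IM against K562 the list went the other way from CA1, with 15 of 19 genes lower and 1 higher by adjusted p, where 57.1% of all tested genes passed, and a median of -1.31. The part of an erythroid shift in the CA1 values was not tested. In bulk RNA, fewer cells of a type and less RNA per cell cannot be told apart.

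CA3 was highest in K562/IM. Its levels were 33.2, 35.6 and 36.3 CPM in K562 and 19.5, 23.4 and 20.8 CPM in K562+L. They were 112, 113 and 118 CPM in K562/IM and 61.9, 61.6 and 60.1 CPM in the G2 libraries. The groups did not overlap. K562/IM stood 3.26-fold above K562 (log2 fold change 1.71, SE 0.072), and K562+L stood below K562 by -0.72 (SE 0.10). The G2 libraries lay between the lines, at -0.88 (SE 0.061) against K562/IM and 0.79 (SE 0.080) against K562.

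CA13 varied least. It stood at 13, 10.2 and 10.7 CPM in K562, at 13.9, 15.4 and 16.3 CPM in K562+L and at 16.4, 18.4 and 18.2 CPM in K562/IM. The G2 libraries gave 9.32, 9.59 and 12.8 CPM and overlapped with K562, the third replicate lying apart from the other two. K562/IM and K562+L were separated by less than 0.1 CPM between their nearest libraries. The log2 fold changes were 0.43 (SE 0.13) in K562+L and 0.65 (SE 0.12) in K562/IM against K562, and -0.71 (SE 0.14) in the G2 libraries against K562/IM. Against K562 those libraries differed by -0.11 (SE 0.17), less than its SE.

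CA13, CA1, CA3 and CA2 lie side by side on chromosome 8, between positions 85220587 and 85481493 of GRCh38, a stretch of 261 kb. CA13 (85220587 to 85284073), CA3 (85373436 to 85449040) and CA2 (85463852 to 85481493) are on the plus strand and CA1 (85327608 to 85379014) is on the minus strand. The gene bodies of CA1 and CA3 share 5579 bases on opposite strands, with 0 bases of coding-transcript exon in common. How strands were treated in counting is not given in the sources used here, so unspliced reads there could be credited to either gene.

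Per kilobase of exon, the 4 neighbours together stood at 38.4 ± 2.69 CPM per kb (SD, n = 3) in K562, 26.3 ± 2.17 in K562+L, 90.9 ± 2.38 in K562/IM and 177 ± 7.53 in the G2 libraries. CA1 made 40.2% of this level in K562 and 38.8% in K562+L, but 23.2% in K562/IM and 78.7% in the G2 libraries. CA3 made 52.0%, 46.0%, 71.7% and 19.7% in the same order. CA13 made 7.76%, 15.2%, 5.09% and 1.57%. The ratio of CA1 to CA3 per kilobase was 0.689 to 0.839 in K562 and 0.773 to 0.901 in K562+L, which overlap. It was 0.314 to 0.338 in K562/IM and 3.87 to 4.2 in the G2 libraries, which overlap with no other group.

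**Figure D2:**
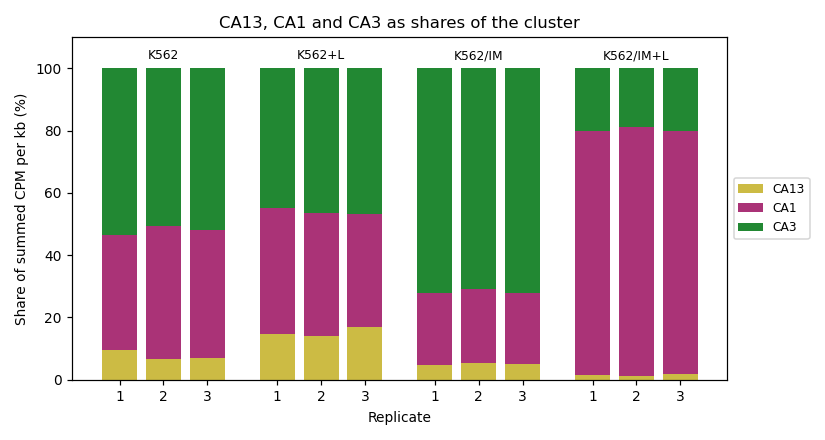
Share of the summed level per kilobase of exon (percent, bars from 0 to 100) taken by CA13, CA1 and CA3 in each of the 12 libraries, by group and replicate. CA2 was counted in 1 library only, at less than 0.1% of the sum, and is not visible. The mean share of CA1 is 78.7% in the G2 libraries and 23.2% in K562/IM.

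The 3 other genes of the table that start within 500 kb of this cluster, LRRCC1, E2F5 and RBIS, all lie on the CA13 side and were never called. E2F5, a transcriptional repressor of the cell cycle, had mean levels of 15.3 ± 0.976 CPM in K562, 15.6 ± 2.03 in K562+L, 12.9 ± 0.487 in K562/IM and 8.59 ± 1.08 in the G2 libraries (SD, n = 3). It was lower in the G2 libraries than in K562/IM by a log2 fold change of -0.56 (edgeR adjusted p = 0.00474) and lower than in K562 by -0.85 (edgeR adjusted p = 0.00124). RBIS, a ribosome biogenesis factor, was at -0.66 in K562/IM against K562 (edgeR adjusted p = 8.32e-04). LRRCC1, a centrosomal protein gene, had mean levels of 78.9, 67.8, 83.5 and 66.6 CPM in K562, K562+L, K562/IM and the G2 libraries and was at -0.30 in the G2 libraries against K562/IM (edgeR adjusted p = 0.0139).

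CA8 (chromosome 8, 60187347 to 60281412, minus strand) was the member with the highest level in K562 and was higher in K562+L than in K562 and in the G2 libraries than in K562/IM. It stood at 209, 206 and 199 CPM in K562 and at 611, 612 and 650 CPM in K562+L. The values were 69.5, 73.5 and 71.0 CPM in K562/IM and 143, 142 and 147 CPM in the G2 libraries. The groups did not overlap. K562+L stood 3.05-fold above K562 (log2 fold change 1.61, SE 0.073), and K562/IM 2.87-fold below K562 (-1.52, SE 0.067). The G2 libraries were above K562/IM by 1.04 (SE 0.063) and below K562 by -0.53 (SE 0.074). The value of 1.04 lies just past the fold threshold, and with normalization by total counts alone it was 0.85.

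ITPR1, whose product CA8 binds, was highest in K562/IM, where CA8 was lowest, and lowest in the G2 libraries. Its mean level was 27.8 ± 2.36 CPM in K562, 33.4 ± 3.54 in K562+L, 51.4 ± 1.28 in K562/IM and 9.01 ± 0.719 in the G2 libraries (SD, n = 3). It was higher in K562/IM than in K562 by a log2 fold change of 0.88 (edgeR adjusted p = 1.03e-04). In the G2 libraries it was lower than in K562/IM by -2.48 (edgeR adjusted p = 7.78e-07) and lower than in K562 by -1.65 (edgeR adjusted p = 3.47e-05). In K562+L the value of 0.26 did not pass (edgeR adjusted p = 0.0969).

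CALB1 (chromosome 8, 90058608 to 90095475, minus strand) had the widest range of the members counted throughout. It stood at 5.13, 4.89 and 5.46 CPM in K562 and at 31.0, 35.7 and 35.4 CPM in K562+L. The values were 53.2, 55.4 and 52.6 CPM in K562/IM and 2.73, 2.48 and 2.64 CPM in the G2 libraries. The groups did not overlap, with K562+L above K562 and the G2 libraries below both K562/IM and K562. K562+L stood 6.59-fold above K562 (log2 fold change 2.72, SE 0.11) and K562/IM 10.4-fold above it (3.38, SE 0.085). The G2 libraries stood 20.1-fold below K562/IM (-4.33, SE 0.084). They were also below K562, by -0.998 (SE 0.15), a value almost on the fold threshold.

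CALB2 (chromosome 16, 71358713 to 71390438, plus strand), the calretinin gene, was at 0 counts in 10 of 12 libraries. K562+L replicate 2 held 1 count and G2 replicate 1 held 5. CA2, the fast isozyme next to CA3, was at 0 in 11 libraries and at 9 counts in G2 replicate 3. A count of 0 allows up to 3 counts, for counting error only, so low expression of either gene was not detectable at this depth. Neither gene passed the filter on low counts in any comparison.

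CA12 (chromosome 15, 63321378 to 63382161, minus strand), the membrane isozyme, was counted mainly in K562/IM. It had 40, 32 and 63 counts there (0.479, 0.333 and 0.588 CPM), against 0, 4 and 4 counts in K562, none in the 3 K562+L libraries and 0, 5 and 0 in the G2 libraries. K562/IM did not overlap with any other group. The ratio of K562/IM to K562, from the summed counts scaled to library size, was 14.3 (exact 95% interval 7.05 to 33.8), and to the G2 libraries it was 23.1 (9.65 to 72.3). Low counts in this table lie near multiples of 4 more often than equally frequent values would give. With counts divided by 4, as if 4 counts were 1 fragment, the ratios were 14.4 (3.69 to 124) and 29.1 (4.88 to 1182). All these intervals cover counting error in the pooled libraries only and leave out the spread between libraries. CA12 was called in both comparisons on the counts as deposited, and on the counts divided by 4 it did not pass the filter and was not tested.

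For K562+L against K562, which asks what lycorine did in the parental line, 2 of the 5 members that passed the filter on low counts were called, both higher (CA8 and CALB1). A gene was called at an adjusted p below 0.05 and an absolute log2 fold change above 1, and in this comparison 6.39% of all tested genes were called. CA1 and CA3 were lower and CA13 higher, without overlap between the groups, by less than that fold. The share of all genes without overlap was not counted, and 37.3% of all tested genes passed by adjusted p alone. CA8 and CALB1 had been singled out from this contrast, so their call carries no further weight.

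In K562/IM against K562, the comparison of the resistant with the parental line, 4 of 6 members were called where 19.1% of all tested genes were. CA3, CA12 and CALB1 were higher and CA8 was lower. CA12 passed the filter only through its counts in K562/IM, and with counts divided by 4, where it was not tested, 3 members were called. The members were chosen after differences between these libraries had been seen, so their count carries no weight beyond description. The same 3 genes higher in K562/IM had lower levels in the G2 libraries, and the 2 comparisons share the K562/IM libraries.

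For the G2 libraries against K562/IM, 4 of 6 members were called, CA1 and CA8 higher and CA12 and CALB1 lower, where 28.5% of all tested genes were called. Here too CA12 passed the filter only through K562/IM, and with counts divided by 4 the members called were 3. The choice of members with these libraries known leaves the counts of both G2 comparisons a description. With normalization by total counts alone CA3 was called lower (-1.06) in place of CA8. Against K562, 1 of 5 members was called in the same libraries, CA1, where 23.8% of all tested genes were. CALB1 was called as well when G2 replicate 1 (-1.04), K562 replicate 1 (-1.004) or K562 replicate 2 (-1.04) was left out.

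**Figure D3:**
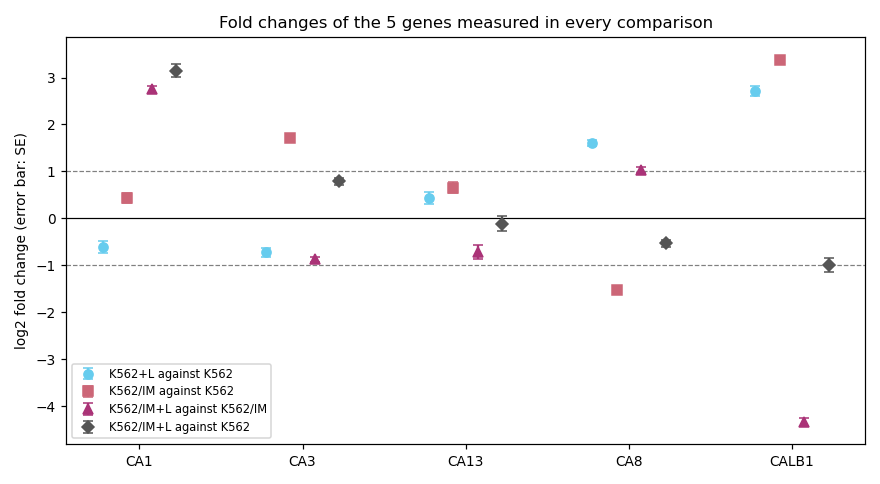
Log2 fold change with its standard error for the 5 genes that passed the filter in all 4 comparisons (edgeR). Dashed lines mark the fold threshold of 1 in either direction. CALB1 spans from 3.38 in K562/IM against K562 to -4.33 in the G2 libraries against K562/IM, while CA13 stays within the dashed lines throughout.

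Levels of different genes were compared per kilobase of exon, and the gene with the highest level was not the same in all groups. CA8 led in K562 at 53.7 CPM per kb and in K562+L at 164, where 305 of 19266 genes stood higher. CA3 led in K562/IM at 65.2 CPM per kb, with 894 genes higher. CA1 led in the G2 libraries at 139 CPM per kb, with 377 genes higher. CALB1 ranked 5 of the members in K562 (1.95 CPM per kb) and in the G2 libraries (0.991), and stood at 12.9 in K562+L and 20.4 in K562/IM. There it lay within the range of CA1 (20.2 to 21.8 CPM per kb), so the order of those genes in K562/IM is not settled by these libraries.

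**Figure D4:**
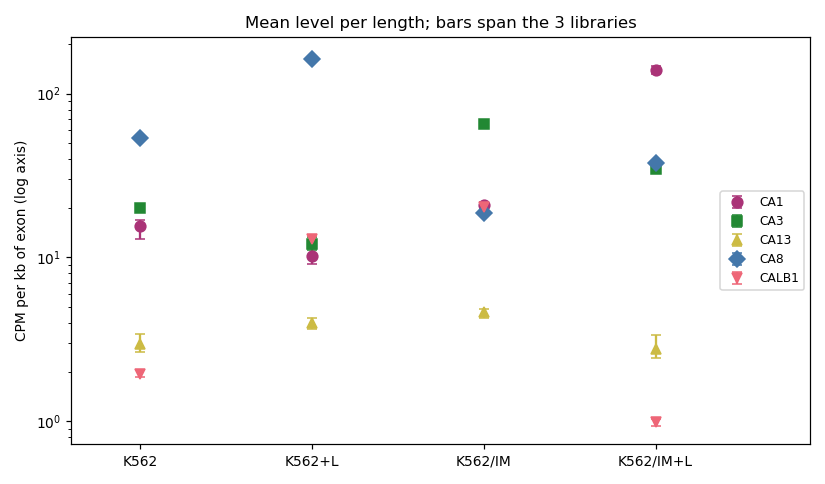
Mean level of 5 genes in CPM per kilobase of exon (log axis) in the 4 groups, with bars from the lowest to the highest of 3 libraries. CA8 is at the top in K562 and K562+L, CA3 in K562/IM and CA1 in the G2 libraries, while CA13 stays between 2.77 and 4.63.

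Of 9 further carbonic anhydrase genes in the table, CA4 and CA6 were at 0 in all libraries and CA5A, CA9 and CA10 reached at most 7 counts in a library, so that 4 were tested. CA7, a cytosolic isozyme of brain, stood at 0.565, 0.680 and 0.875 CPM in K562 and at 2.63, 3.21 and 3.0 CPM in K562/IM. The groups did not overlap, and the log2 fold change was 2.06 (SE 0.24, edgeR adjusted p = 2.36e-04). The G2 libraries were at 1.06, 1.06 and 0.510 CPM, lower than K562/IM by -1.73 (SE 0.30, edgeR adjusted p = 0.00164). CA11, a second member without enzyme activity, had mean levels of 10.3, 6.31, 17.4 and 8.58 CPM in K562, K562+L, K562/IM and the G2 libraries. It was higher in K562/IM than in K562 by 0.76 (edgeR adjusted p = 0.00152) and lower in K562+L by -0.71 (edgeR adjusted p = 0.00908). In the G2 libraries it was lower than in K562/IM by -0.998 (edgeR adjusted p = 0.00146), just short of the fold threshold. CA5B, a mitochondrial isozyme, at group means of 2.98 to 5.44 CPM, and CA14, a membrane isozyme, at 0.195 to 0.573 CPM, did not pass in any of the 4 comparisons.

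**Figure D5:**
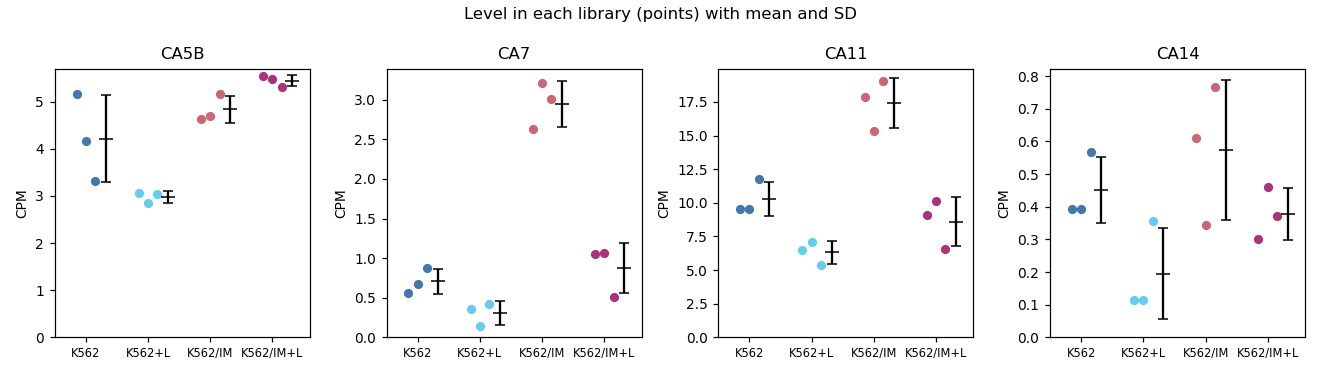
Level of the 4 other carbonic anhydrase genes that were tested, in CPM (linear axes from 0, a different range in each panel), for replicates 1 to 3 of each group, with the mean and SD beside them. CA7 and CA11 are highest in K562/IM, with group means of 2.95 and 17.4 CPM.

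The genes that carry bicarbonate, protons and carbon dioxide across membranes (27 in the list, 21 or 22 tested) were called in no instance in K562+L by edgeR or DESeq2. By edgeR 1 was higher and 3 were lower by adjusted p alone, and 1 was higher and 5 were lower at an unadjusted p below 0.05. In K562/IM against K562, 4 were called higher and 4 lower, where 19.1% of all tested genes were called. In the G2 libraries, 9 were higher and 4 lower against K562/IM, where 28.5% of all tested genes were called, and 8 higher and 3 lower against K562, where 23.8% were. SLC4A1, the anion exchanger of red cells, was at 923 to 1030 CPM in the G2 libraries and at most 6.88 CPM in the other 9, with a log2 fold change of 7.80 against K562 (edgeR adjusted p = 1.80e-06). AQP1, a water channel of the red cell membrane that also passes carbon dioxide, was at 75.7 to 84.8 CPM there and at most 6.39 CPM in the other 9 libraries, and higher than in K562/IM by 3.89 (edgeR adjusted p = 4.01e-07). SLC4A1 was lower in K562/IM than in K562 by -5.12 (edgeR adjusted p = 1.55e-05), where CA1 was not lower.

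Of 40 other EF-hand calcium-binding genes, 27 to 29 were tested. In K562+L none was called higher by edgeR or DESeq2, nor higher at an unadjusted p below 0.05, and 6 were called lower, in K562/IM against K562 6 were higher and 2 lower, in the G2 libraries 4 were higher and 5 lower against K562/IM, and 4 higher and 1 lower against K562. The shares of all tested genes called in these comparisons were 6.39%, 19.1%, 28.5% and 23.8%, and the counts of the G2 libraries lie close to or below theirs. S100A16 shared with CALB1 a high level in K562/IM, at 33.6 to 35.4 CPM against at most 2.79 CPM in the other 9 libraries. It was higher in K562/IM than in K562 by 4.05 (edgeR adjusted p = 6.59e-06). In K562+L, where CALB1 was higher, S100A16 was lower by -1.50 (edgeR adjusted p = 0.00829). S100A11 had mean levels of 54.8 ± 6.99 CPM in K562, 20.3 ± 0.569 in K562+L, 98.5 ± 2.55 in K562/IM and 11.4 ± 1.95 in the G2 libraries (SD, n = 3). It was lower in K562+L by -1.43 (edgeR adjusted p = 1.78e-04) and in the G2 libraries than in K562/IM by -3.09 (edgeR adjusted p = 1.50e-06).

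Of 30 genes of calcium release, entry and pumping, 25 or 26 were tested. The called genes were 1 higher and 4 lower in K562+L, 5 higher and none lower in K562/IM against K562 (1 lower by DESeq2, and 4 lower by edgeR at an unadjusted p below 0.05), 2 higher and 7 lower in the G2 libraries against K562/IM, and 4 higher and 4 lower against K562. The shares of all tested genes called were 6.39%, 19.1%, 28.5% and 23.8%, and the count in K562/IM against K562 lies close to its share. Over the tested genes of the list, log2 fold changes had a median of 0.47 in K562/IM against K562 and -0.33 in the G2 libraries against K562/IM, where the medians of all tested genes were 0.04 and -0.01. ATP2A3, a pump that returns calcium to the endoplasmic reticulum, had mean levels of 85.6 ± 5.96 CPM in K562, 22.5 ± 1.78 in K562+L, 192 ± 1.08 in K562/IM and 32.2 ± 2.70 in the G2 libraries (SD, n = 3). It was lower in K562+L than in K562 by -1.93 (edgeR adjusted p = 4.81e-05). In the G2 libraries it was lower than in K562/IM by -2.55 (edgeR adjusted p = 4.80e-07) and lower than in K562 by -1.43 (edgeR adjusted p = 4.02e-05).

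Genes of other blood lineages were counted mainly through single genes. The 12 granulocyte and monocyte genes summed to 80.3 to 128 CPM in K562, K562+L and the G2 libraries and to 170 to 179 CPM in K562/IM. LYZ made most of it, with mean levels of 111, 120, 166 and 78.1 CPM in K562, K562+L, K562/IM and the G2 libraries, and AZU1, a granule gene, stood at 2.59 to 5.36 CPM in K562/IM and the G2 libraries and below 1 CPM in the other 6. The 12 lymphoid genes summed to 0.589 to 3.82 CPM outside K562/IM and to 25.4 to 27.0 CPM in K562/IM, of which CD3D alone made 21.3 to 23.0 CPM, while CD3E was at most 0.125 CPM there and MS4A1 at 0. These sums are highest in K562/IM, as are CA3, CA12 and CALB1, and their part in those levels was not tested.

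Over the 12 libraries, the genes most like each member in log2(CPM + 0.5) were sought among 11666 genes with a mean of at least 1 CPM. The likeness is Pearson's r, given as a description, since the 12 points fall into 4 groups. CA1 was most like COL18A1 (r = 0.999), a collagen gene, YPEL3 (0.997) and CPT2 (0.997), and CA3 most like LRMP (0.990), TSLP (0.989) and CASP4 (0.988). CA8 was most like GMPS (0.988), INTS7 (0.988) and SF3A1 (0.987), and CA13 most like GPATCH2 (0.978), FAM234B (0.973) and ZBTB39 (0.968). CALB1 was most like TRAF5 (0.991), PMAIP1 (0.983) and RAB30 (0.980). Among the members themselves CA3 and CA8 ran opposite to each other (r = -0.968) and CA13 ran with CALB1 (r = 0.906), though the range of CA13 was far narrower. COL18A1 stood at 99.9, 65.3, 128 and 915 CPM in the order K562, K562+L, K562/IM and the G2 libraries, with the group order of CA1.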

How the data were processed

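The authors deposited 1 table of counts per gene symbol for 12 poly(A)-selected libraries, not normalized. The submitters' processing notes name FastQC, STAR, StringTie, DESeq2 and hg38, and how counts were assigned, and on which strand, is not given in the sources used here. Symbols were matched to GENCODE release 29 (19270 of 19447) for positions and merged exon length of coding transcripts. Libraries were grouped by the cell line and treatment in their labels. The K562/IM+L libraries are numbered G2 in the labels and otherwise in the study's figures, and were grouped as labelled.

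Each comparison was fitted on its 6 libraries with edgeR 4.0.16 (R 4.3.3): at least 10 counts by filterByExpr, TMM scaling, quasi-likelihood test and Benjamini-Hochberg adjustment over all tested genes. The standard error is the log2 fold change divided by the square root of the F statistic. The difference of the lycorine effects between lines was an interaction term over all 12. CPM used TMM factors over 12 libraries. On simulated counts at these depths, for K562/IM against K562, 200 of 200 genes changed by a log2 of 2 were called, with 0 false calls among 13403 genes. For the interaction over 12 libraries it was 200 of 200, with 9 false calls among 13708 genes. The simulated spread between replicates was fixed and equal for all genes, and was not estimated from these libraries. Only genes with higher counts were changed. The simulation therefore gives no error rate for the real libraries or for genes with low counts. Of 23289 values between 1 and 25 counts, 67.9% were a multiple of 4 or 1 above it, where 52% of the whole numbers are. The 52% is what equally frequent values would give, and whether they are equally frequent was not checked. Counting noise may exceed what the totals give. Replicate numbers gave correlations of -0.57 to 0.16 between same-numbered libraries, so numbers were not taken to pair samples.

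The genes and lists were chosen with earlier results of these data known. Named in the text were all 8 genes, at most 3 called genes of each list per comparison by smallest p (all genes of short lists), the 3 genes most like each member and the cluster's neighbours within 500 kb. The blood lineage genes named singly, COL18A1 among the like genes for its levels, ITPR1 in K562+L and K562/IM, and S100A16 in K562+L were picked after their values were seen. DESeq2 1.42.0, other normalizations and filters, counts divided by 4, a replicate block and leaving out each library were the alternatives.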

Additional observations from a re-analysis of the deposited data

Results flagged for a closer look

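For CA1, CA13 and CALB1 the lycorine difference had opposite signs under the K562 and K562/IM labels. Each library of one lycorine group lay above its control group and each library of the other below. The share of all genes with such opposite signs was not counted, and 61.7% of 13995 genes passed the interaction test of edgeR. The difference of the log2 fold changes, the G2 libraries against K562/IM minus K562+L against K562, was 3.34 (SE 0.16) for CA1, -1.17 (SE 0.19) for CA13 and -7.08 (SE 0.12) for CALB1. For these 3 genes the difference was not tested, since the genes were chosen on these libraries. It was -0.18 (SE 0.11) for CA3 and -0.59 (SE 0.079) for CA8. No value is given for CA12, which was at 0 in all 3 K562+L libraries.

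Of 20 other genes named from the lists or beside the cluster and tested, 14 passed the interaction test of edgeR for the same difference, where 61.7% of 13995 genes did. Apart from the carbonic anhydrases and the cluster's neighbours, these genes were named for their values in the same libraries. Their count and p-values are therefore a description. HBB, not counted among the 20, was at 12.51 (edgeR adjusted p = 8.46e-11). The values were 12.60 for SLC4A1 (edgeR adjusted p = 1.71e-10), 4.53 for AQP1 (5.30e-08), -3.46 for S100A16 (2.50e-06), -2.77 for ITPR1 (2.21e-08), -1.68 for S100A11 (6.06e-06), -0.64 for ATP2A3 (5.87e-04), 0.86 for RBIS (0.00634), 0.68 for CA5B (0.0195) and -0.61 for E2F5 (0.00785). Among the blood lineage markers they were 5.81 for ALAS2 (1.71e-10), 4.73 for HBG1 (3.32e-08), -3.82 for CD3D (3.87e-05), -1.20 for LYZ (1.71e-06) and 0.51 for GATA1 (0.0295).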

How the results depend on the processing

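Among the fold changes of the 8 genes, 295 values under alternatives moved by less than the spread between replicates and 31 by more, and no called value changed sign. Without a fold threshold the calls were 4821, 7661, 9169 and 7446 genes (K562+L against K562, K562/IM against K562, and the G2 libraries against K562/IM and against K562), in place of 826, 2566, 3917 and 3162, and the members called were 5, 6, 6 and 4. Without a filter on low counts 2 members were called in the last of these comparisons, CALB1 beside CA1. Leaving out 1 library gave 672 to 1085, 2392 to 2884, 3790 to 4323 and 3013 to 3209 genes, and 1 to 2 members in the last comparison. CA12 was not tested with at least 10 counts in every library, and its fitted log2 fold change against K562/IM ran from -8.42, without G2 replicate 2, to -3.71. Total counts alone moved the median of all genes by 0.19 in K562/IM against K562 and by -0.19 in the G2 libraries against K562/IM, where the share of higher calls was 40.6% in place of 51.6%. Upper-quartile scaling moved it by 0.15 in those libraries against K562, where that share was 73.0% in place of 62.5%. The CA13 value there was between -0.26 and 0.04 over all alternatives. With the replicate block, 735, 2433, 3807 and 2913 genes were called and the member calls did not change. Of the same-numbered library pairs only some correlated best with their own number. Depth limits CA2, CALB2 and CA12, which rest on few or no counts.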
